A study of Mus musculus with 6 samples.

Results

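The Nap1 family of histone chaperones and 2 related acidic chaperones were followed through islet RNA from mice with added Jag1. The set holds Nap1l1, Nap1l2, Nap1l3, Nap1l4 and Nap1l5, the relative Set, and Npm1, which is 7 of the 34945 gene rows of the deposited count table. The set was selected on Nap1l1, chosen by its lower counts in the comparison of Jag1 with Control islets. The other 6 genes were added as its family and as chaperones of related function. Differences between the groups are therefore given for all 7 genes as description, and nothing is read from the tests printed for them.

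Mice of both groups gave pancreatic islets and had RIP-Cre+, in which the rat insulin promoter drives Cre recombinase, and Rosa26-rtTA+, a transactivator that works when doxycycline is bound. The Jag1 group also carried tetO_Jag1+, an inducible allele of the Notch ligand Jag1, while the Control group was tetO_Jag1-. Both groups drank doxycycline for 8 weeks, so Cre, rtTA and doxycycline do not differ between them. The insulin promoter places Cre in beta cells, but whole islets were sequenced, and they hold other endocrine cells, vessels and remnants of the surrounding tissue. Each group had 3 libraries, and the labels number them without saying that each is a separate mouse, so the spread between libraries may be partly technical. The series asks what a gain of Jag1 in beta cells does to islets.

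Histone chaperones are acidic proteins that hold basic histones away from DNA and hand them on during nucleosome assembly, transcription and replication. Nap1 proteins mainly bind the H2A-H2B dimer, carry it to the nucleus with importins and deposit it on DNA. Nap1l1 and Nap1l4 are made in most cells, whereas Nap1l2, Nap1l3 and Nap1l5 are known best from neurons, whose gene programme endocrine cells partly share. Set has the same fold as Nap1 proteins and also inhibits the phosphatase PP2A. Npm1, or nucleophosmin, belongs to the separate nucleoplasmin family and works mostly in the nucleolus, where ribosomes are built.

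Several of these genes have processed copies elsewhere in the genome, and Set has the most that carry counts. Bases 109 to 168 of the Set coding sequence are shown beside the same stretch of its 3 copies with the most counts, because reads from such a stretch can be counted to either gene. Bases are 5′ to 3′ in the sense of the transcript, capitals mark bases that differ from Set, and the sequences were read from GENCODE vM21 transcripts on GRCm38.
Set: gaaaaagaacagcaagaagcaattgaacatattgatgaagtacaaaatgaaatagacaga
Gm9531: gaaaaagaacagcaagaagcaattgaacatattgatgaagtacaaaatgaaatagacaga
Gm8705: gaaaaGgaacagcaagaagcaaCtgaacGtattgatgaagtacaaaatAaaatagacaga
Gm7085: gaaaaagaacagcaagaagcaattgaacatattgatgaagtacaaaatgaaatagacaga

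Over these 60 bases Gm9531 and Gm7085 differed from Set at 0 positions and Gm8705 at 4. Gm9531 is at chromosome 9, 81677598 to 81678677, Gm8705 at chromosome 15, 38243364 to 38244248, and Gm7085 at chromosome 16, 15452004 to 15452762. The 7 genes themselves are far less alike. Nap1l1 and Nap1l4 were the closest pair in coding sequence, with 71.8% identity over 1136 aligned bases, and the other 20 pairs had 57.3% to 68.6%. Nap1l4 and Npm1, which is of a separate family, had 62.7%, so values of this size do not mark family members.

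The genes lie apart in the genome (GRCm38, GENCODE vM21). Nap1l1 is at chromosome 10, 111473223 to 111498150, on the plus strand, with up to 16 exons in a transcript. Nap1l4 is at chromosome 7, 143513579 to 143549106, on the minus strand, also with up to 16 exons. Nap1l2 (chromosome X, 103184176 to 103186640) and Nap1l3 (chromosome X, 122394565 to 122397401) each have a single exon on the minus strand. Transcripts of 4 genes of the Y chromosome (Ddx3y, Eif2s3y, Kdm5d and Uty) summed to 194 to 242 CPM in the 6 libraries, so every library held RNA of male cells beside these X-linked genes. Nap1l5 (chromosome 6, 58905233 to 58907076, minus strand), an imprinted gene, sits inside Herc3 on the other strand. Set is at chromosome 2, 30057378 to 30072577 on the plus strand, and Npm1 at chromosome 11, 33152287 to 33163206 on the minus strand.

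Library totals ranged from 14283469 to 34348729 estimated counts. A limit of 3 counts, which a count of 0 allows, corresponded to 0.0853 to 0.204 CPM (counts scaled to a common library size by the TMM method), and this limit covers counting error only. Jag1 itself had 4.01 to 4.28 CPM in the Control libraries and 525 to 907 CPM in the Jag1 libraries, so each library followed its label. Beta cell markers, insulin included, summed to 143665 to 184418 CPM in Control against 148361 to 210265 CPM in Jag1 libraries, and the ranges overlapped. Markers of acinar cells, the enzyme-secreting cells around islets, varied within both groups. Their sums were 82492, 28444 and 3308 CPM in Control 1 to 3 and 5760, 19840 and 82814 CPM in Jag1 1 to 3. Of 14073 genes that passed the filter on low counts, edgeR (quasi-likelihood test, Benjamini-Hochberg adjustment over all genes) called 3, and the median log2 fold change was -0.004.

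All 7 chaperone genes passed the filter, with between 185 and 6018 counts in a library. The order of levels was not used to choose them and was compared per kilobase of coding transcript. Over the 6 libraries Npm1 had the highest level, 153 ± 16.3 CPM per kb (SD, n = 6). Nap1l1 followed with 87.9 ± 25.4, Set with 63.1 ± 4.97, Nap1l4 with 53.5 ± 5.30 and Nap1l5 with 29.2 ± 3.15 CPM per kb. Lowest were Nap1l2, with 7.48 ± 1.43, and Nap1l3, with 4.69 ± 0.40 CPM per kb. Among 13830 tested genes with a known length, Npm1 stood above 97.5%, Nap1l1 above 95.3%, Nap1l5 above 82.9% and Nap1l3 above 37.3%.

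In the Control libraries no neighbours in this order overlapped. Nap1l1 was the main Nap1 transcript there, with 125, 97.3 and 105 CPM per kb in Control 1 to 3, against 46.2, 49.8 and 55.9 CPM per kb for Nap1l4, the other widely made member. In the Jag1 libraries Nap1l1 had 60.1, 76.1 and 63.9 CPM per kb. Set, with 70.6, 66.8 and 63.7 CPM per kb, and Nap1l4, with 61.6, 52.7 and 54.7 CPM per kb, each overlapped with Nap1l1 there, while Set stayed above Nap1l4 in all 3 libraries. Npm1 stayed on top and Nap1l5, Nap1l2 and Nap1l3 kept their places at the bottom in both groups. The levels depend on which length is used: by the merged exon length Nap1l1 had 34.0 CPM per kb and by the longest coding transcript 43.1, and it overlapped with Set under both.

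**Figure D1:**
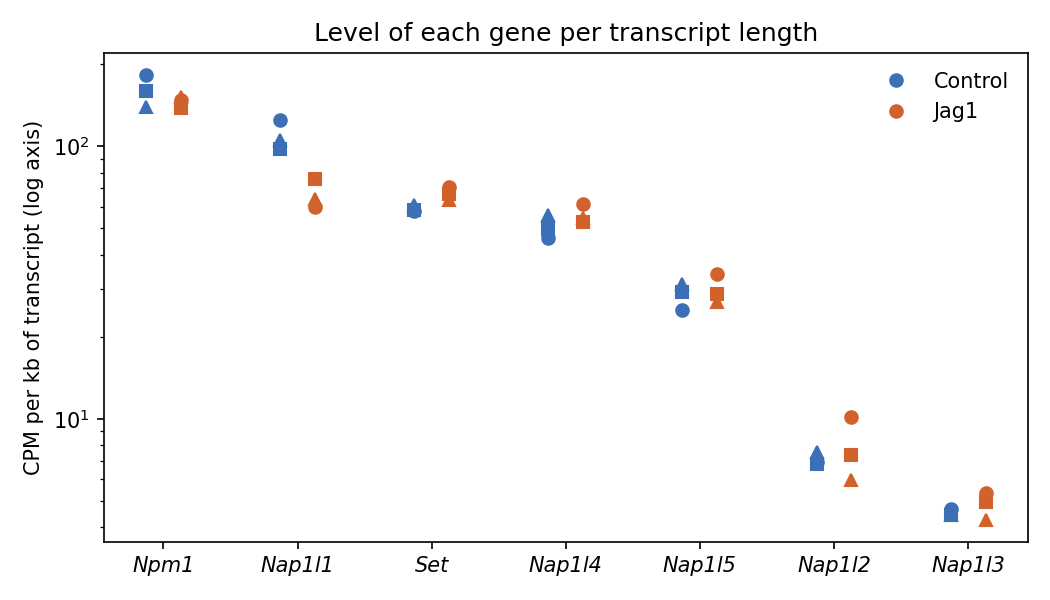
Level of each chaperone gene in CPM per kilobase of coding transcript (log axis), with 1 point per library, Control in blue and Jag1 in orange (circle, square and triangle for replicates 1, 2 and 3). Npm1 is highest, Nap1l2 and Nap1l3 are lowest, and Nap1l1 sits above Set and Nap1l4 in the Control libraries and overlaps with each of them in the Jag1 libraries.

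Nap1l1, the general H2A-H2B chaperone of the family, was lower in Jag1 islets. It had 241, 188 and 203 CPM in Control 1 to 3 and 116, 147 and 123 CPM in Jag1 1 to 3. The groups did not overlap: the highest Jag1 library, Jag1 2, lay below the lowest Control library, Control 2. The means were 210 ± 27.4 and 129 ± 16.1 CPM (SD, n = 3 each). The log2 fold change was -0.71 (SE 0.13), which is 38.8% lower. These values chose the set and are a description. In whole islets, fewer cells of a type and less RNA per cell cannot be told apart.

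edgeR called 0 of the 7 genes after adjustment, where it called 0.0213% of all genes tested and 0.00711% as lower in Jag1 islets. Of the 7, 1 gene, Nap1l1, had an unadjusted p under the threshold, as had 4.97% of all genes. DESeq2 called 1 of the 7, again Nap1l1, against 0.256% of genes in either direction and 0.0782% lower, and limma-voom called 0, against 0.0284%. The authors' deposited table gives Nap1l1 a log2 fold change of -0.71 and calls none of the 7 genes, where it calls 0.0213% of genes. Since this contrast chose Nap1l1, nothing is read from these counts. Leaving out each library in turn gave log2 fold changes of -0.81 to -0.59 for Nap1l1. With the acinar score as a covariate the value was -0.71, and without Control 1 and Jag1 3, the libraries with the most acinar RNA in their groups, it was -0.56.

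**Figure D2:**
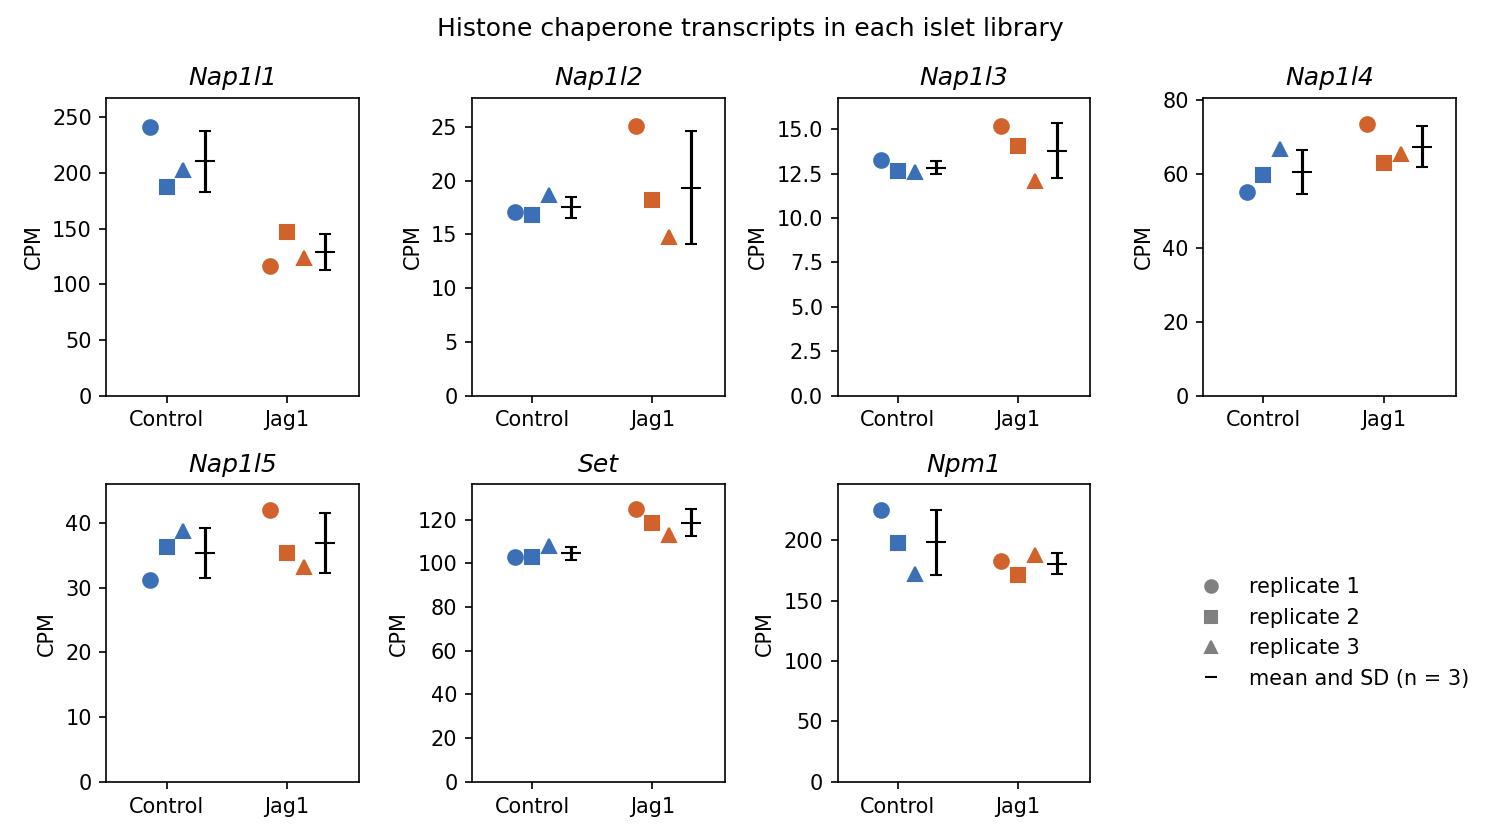
CPM of each chaperone gene in the 3 Control and 3 Jag1 libraries (circle, square and triangle for replicates 1, 2 and 3; bars are mean and SD, axes start at 0). Nap1l1 lies at 188 to 241 CPM in Control against 116 to 147 CPM in Jag1 libraries, while the groups overlap for Nap1l2 to Nap1l5 and for Npm1.

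Nap1l4, the closest relative of Nap1l1 and likewise widely made, was not lower. It had 55.2, 59.5 and 66.8 CPM in Control 1 to 3 and 73.5, 63.0 and 65.4 CPM in Jag1 1 to 3. The groups overlapped, and the log2 fold change was 0.15 (SE 0.12). The 2 genes thus had values of opposite sign in the same libraries. The ratio of Nap1l1 to Nap1l4 counts was 3.52 ± 0.74 in Control and 1.93 ± 0.38 in Jag1 libraries (SD, n = 3 each), and it does not depend on the scaling of the libraries.

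Nap1l2 and Nap1l3 gave small values with overlapping groups. Nap1l2, an X-linked gene studied in neural precursor cells, had 17.1, 16.8 and 18.6 CPM in Control 1 to 3 and 25.1, 18.2 and 14.8 CPM in Jag1 1 to 3. Jag1 1 and Jag1 3 were its highest and lowest libraries of all 6, so the spread within the Jag1 group was wider than the difference between groups. Its log2 fold change of 0.15 (SE 0.18) became -0.08 without Jag1 1. Nap1l3, the other X-linked single-exon gene, had 13.3, 12.6 and 12.6 CPM in Control 1 to 3 and 15.2, 14.05 and 12.1 CPM in Jag1 1 to 3. Jag1 3 lay below every Control library and the other Jag1 libraries lay above them. The log2 fold change was 0.10 (SE 0.14).

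Nap1l5, the shortest coding sequence of the 7 with 471 bases, had 31.1, 36.2 and 38.8 CPM in Control 1 to 3. In Jag1 1 to 3 it had 42.0, 35.4 and 33.2 CPM, and the groups overlapped. The log2 fold change was 0.06 (SE 0.13), and it was -0.04 without Jag1 1 and -0.02 without Control 1. Its host gene Herc3, a ubiquitin ligase gene, averaged 30.4 ± 0.93 CPM in Control against 28.3 ± 3.44 CPM in Jag1 libraries, a log2 fold change of -0.10 (SE 0.12). The annotated exons of Nap1l5 and Herc3 share 0 bp. The libraries came from a stranded kit, but the sources used here do not state whether the counting used strand. The other overlapping gene in the table, 4930519F16Rik around Nap1l2, had at most 1 count in a library.

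Set, the inhibitor of PP2A with the Nap1 fold, was slightly higher in every Jag1 library. It had 103, 103 and 108 CPM in Control 1 to 3 and 125, 118 and 113 CPM in Jag1 1 to 3. The groups did not overlap, and the log2 fold change was 0.18 (SE 0.10), a difference of 13.4%. Of the 7 genes, 2 had groups that did not overlap, Nap1l1 downward and Set upward, against 10.5% of all genes tested, and nothing is read from that share. The value of Set is uncertain because other rows share its sequence. BLAST found 19 copies, and 6 of those in the table held counts, together 13.3% of the counts of Set. The main one was the pseudogene Gm9531, which matches Set over 775 bp at 100% identity (the stretch shown above is part of it), while Gm8705 had at most 11 counts in a library and Gm7085 at most 2. Gm9531 had 19.3, 17.5 and 17.7 CPM in Control 1 to 3 and 15.3, 10.01 and 13.3 CPM in Jag1 1 to 3, the opposite direction (log2 fold change -0.51, SE 0.16). With the copies added to Set, the means were 123 ± 2.64 and 132 ± 7.75 CPM, and the log2 fold change was 0.098 (SE 0.099). How the estimate divided reads between Set and Gm9531 was not tested.

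Npm1, the nucleolar chaperone, had 225, 197 and 172 CPM in Control 1 to 3 and 183, 171 and 188 CPM in Jag1 1 to 3. All 3 Jag1 libraries lay below Control 1 and Control 2, and Control 3 lay among them. The log2 fold change was -0.13 (SE 0.12), and -0.03 without Control 1. BLAST found 13 copies of Npm1, of which 5 held counts, together 0.192% of those of Npm1. The copies with the most counts were the pseudogenes Gm13423, with 2 to 8 counts in a library, Gm9118, with 7 in Jag1 3 and 0 elsewhere, and Gm6477, with 2 in Jag1 1 and 4 in Jag1 3. A further 200 annotated genes matched only bases 115 to 285 of 1 Npm1 transcript, outside the coding part. For Nap1l1, 2 pseudogene copies had 0 counts. Another 130 annotated genes matched only bases 76 to 565 of 1 Nap1l1 transcript, outside the coding part. Not all of these annotated genes have a row in the count table. No other annotated gene shared sequence in the same sense with Nap1l2 to Nap1l5 at the identity and length searched. Matches in the opposite sense were not searched.

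**Figure D3:**
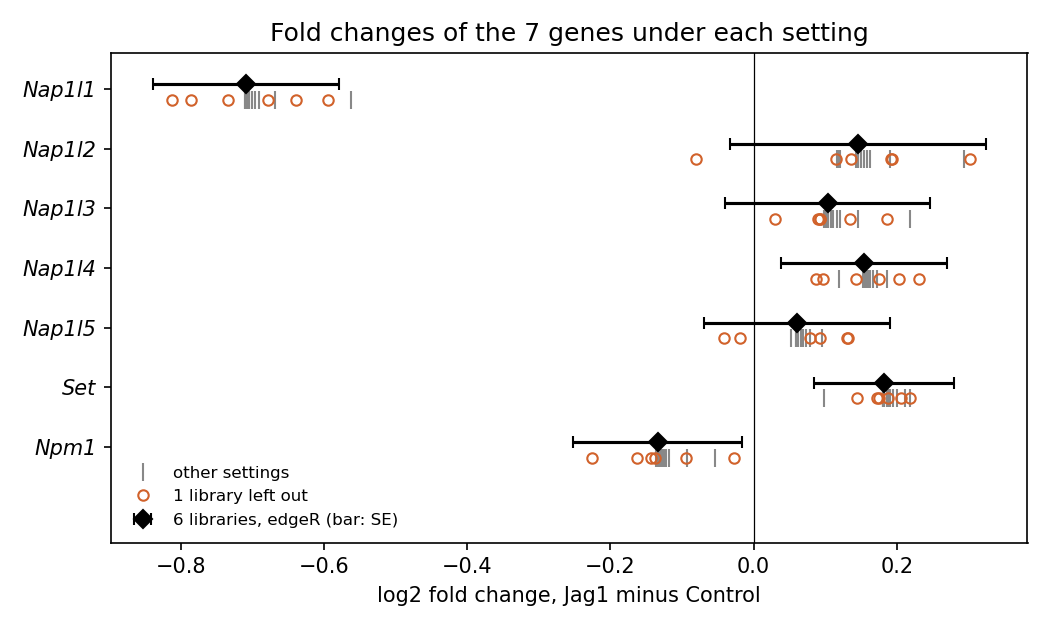
Log2 fold change of each chaperone gene, Jag1 minus Control: the diamond is the edgeR value over 6 libraries with its SE, circles leave out 1 library each, and ticks are the other settings. Nap1l1 lies between -0.81 and -0.56 under every setting drawn, whereas the values of Nap1l2 and Nap1l5 include both signs.

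The make-up of the Nap1 family within each library shows the same values without scaling between libraries. Nap1l1 held 67.4% of the summed counts of Nap1l1 to Nap1l5 in Control 1 (exact Clopper-Pearson 95% interval 66.2 to 68.5), 59.99% in Control 2 (58.7 to 61.3) and 59.7% in Control 3 (58.3 to 61.1). In Jag1 1 to 3 it held 42.7% (41.3 to 44.0), 52.9% (51.9 to 53.9) and 49.6% (48.1 to 51.1). Every Jag1 library was below every Control library. The intervals cover counting error only, not the spread between libraries. Those of Control 2 and Control 3 overlapped, while those of the 3 Jag1 libraries did not. Nap1l4 held 18.04 ± 2.29% in Control and 25.3 ± 2.33% in Jag1 libraries, and Nap1l5 10.6 ± 1.62% and 13.9 ± 1.42% (SD, n = 3 each). Shares of a common total are tied, so a lower Nap1l1 share by itself raises the others. In CPM the groups of Nap1l4 and of Nap1l5 overlapped. Since Nap1l1 chose the set, all these shares are a description. Nap1l2 and Nap1l3 held the smallest shares in all 6 libraries, the highest being 9.23% and 5.59%, both in Jag1 1.

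The family as a whole had 337 ± 22.5 CPM in Control against 266 ± 15.2 CPM in Jag1 libraries. Without Nap1l1 the sums were 126 ± 10.1 and 137 ± 16.3 CPM, and the groups overlapped. The lower family sum in Jag1 libraries thus came with lower Nap1l1, and the other 4 genes summed to similar values in both groups.

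**Figure D4:**
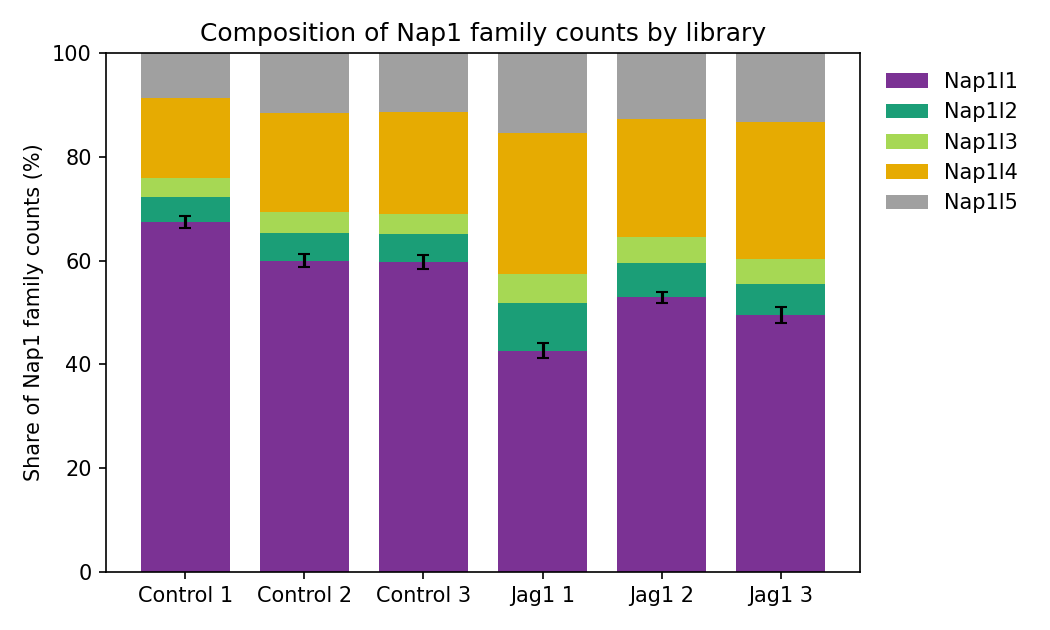
Share of each gene among the summed counts of Nap1l1 to Nap1l5, in percent, with 1 bar per library and the exact 95% interval of the Nap1l1 share. The interval covers counting error only. The Nap1l1 share is 59.7% to 67.4% in the Control libraries and 42.7% to 52.9% in the Jag1 libraries.

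Cell cycle genes were compared beside Nap1l1, since replicating cells need new nucleosomes. The list had 22 measured genes, 21 of them with negative values and a median log2 fold change of -0.85. Their summed levels were 195, 139 and 188 CPM in Control 1 to 3 and 117, 114 and 140 CPM in Jag1 1 to 3. Jag1 3 slightly exceeded Control 2, and 0 genes of the list were at 0 in all libraries. edgeR called 0 of them (0.0213% of all genes tested), with 12 at an unadjusted p under the threshold (4.97% of all genes). DESeq2 called 2, Mki67 and Top2a (0.256% of all genes), and limma-voom called 0 (0.0284%). Of the 22 genes, 9 had groups that did not overlap, all lower in Jag1 libraries, against 5.21% of all genes tested. Alpha cell markers had lower sums too, at 35355 to 57229 CPM in Control against 15012 to 33082 CPM in Jag1 libraries. Duct markers (269 to 302 and 376 to 406 CPM) and markers of stellate cells, pericytes and fibroblasts (183 to 227 and 267 to 398 CPM) had higher sums in Jag1 libraries. Of 7 alpha markers 6 had negative values, with log2 fold changes of -0.87 to 0.21. Of 8 duct markers 7 were positive, with a wide range of -0.33 to 2.30. All 10 markers of the stellate list were positive, at 0.20 to 1.18. A sum is weighted to its most abundant genes. In the alpha, duct and stellate lists 0 members were at 0. Of 13 mitochondrially encoded genes 12 had negative values (median -0.33), and their sums were 117517, 91446 and 75414 CPM in Control 1 to 3 and 87027, 83686 and 68075 CPM in Jag1 1 to 3. The 4 delta and gamma markers summed to 4462 to 6238 CPM in Control and 3295 to 7011 CPM in Jag1 libraries, with overlap. Of them 3 had negative values and 1 was positive, at 0.77, while Sst and Rbp4 were lower in Jag1 libraries without overlap. The part of these lists in the Nap1l1 values was not tested.

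Other histone chaperones had values on both sides of 0. Of 42 measured genes in 7 lists, 16 had positive and 26 negative values, and the median log2 fold change was -0.03. Over all genes tested, 51.0% had negative values. edgeR called 0 of them, against 0.0213% of all genes. An unadjusted p under the threshold was found for 3 (Tspyl1, Chaf1a and Srcap), against 4.97% of all genes, and nothing is read from so few. DESeq2 and limma-voom called 0, against 0.256% and 0.0284%. The groups did not overlap for 14.3% of them, 3 lower and 3 higher, against 10.5% of all genes tested. Lower were Cabin1, Chaf1a and Tonsl, and higher were Tspyl1, Npm3 and Anp32e. Chaf1a was the 1 gene of the 42 with a lower log2 fold change than Nap1l1, and nothing is read from this, since Nap1l1 was chosen by its low value. Of the 22 cell cycle genes, 14 were lower than Nap1l1.

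The relatives of the Nap1 fold, the Tspyl genes, had 3 positive and 2 negative values (median 0.04). Tspyl1 had 72.7, 75.3 and 79.8 CPM in Control 1 to 3 and 99.4, 86.9 and 84.6 CPM in Jag1 1 to 3, and its groups did not overlap (log2 fold change 0.25, SE 0.11). Tspyl4, the highest of them in CPM, had 177 ± 14.6 and 182 ± 6.20 CPM, and the log2 fold change of Tspyl2 was -0.23 (SE 0.12) with overlapping groups. Among nucleoplasmin relatives, Npm3 averaged 5.99 ± 0.54 CPM in Control against 7.13 ± 0.49 CPM in Jag1 libraries, with groups that did not overlap, while Npm2, the oocyte member, did not pass the filter. Of the ANP32 proteins, which are acidic like Set, Anp32e, the chaperone that removes H2A.Z, had 90.8, 87.6 and 90.9 CPM in Control and 117, 93.4 and 98.4 CPM in Jag1 1 to 3. For Anp32a the log2 fold change was -0.01 (SE 0.13), and for Anp32b it was -0.02 (SE 0.11).

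Among the 18 measured chaperones of H3-H4, which work at replication forks and in replication-independent assembly, 13 had negative values (median -0.09). Chaf1a, the large subunit of the replication-coupled assembly factor CAF-1, had 3.51, 1.81 and 2.99 CPM in Control 1 to 3 and 0.85, 1.79 and 1.48 CPM in Jag1 1 to 3. Its lowest Control and highest Jag1 libraries almost touched, and the log2 fold change was -0.996 (SE 0.40). Hira, of the replication-independent H3.3 pathway, had 0.21 (SE 0.12), Atrx -0.26 (SE 0.17) and Rbbp7 0.14 (SE 0.11), all with overlapping groups. For FACT and transcription-coupled chaperones the median was -0.07, with 0.06 (SE 0.11) for the FACT subunit gene Ssrp1, -0.15 (SE 0.11) for Supt6 and -0.12 (SE 0.15) for Iws1. For genes of H2A variant exchange it was -0.04, and Srcap, the ATPase that deposits H2A.Z, had 97.1, 70.2 and 56.0 CPM in Control and 52.3, 48.1 and 56.9 CPM in Jag1 1 to 3, with overlapping groups. Ep400, another large ATPase gene of this list, had a value of -0.06 (SE 0.13). The histone importins, which carry Nap1 cargo into the nucleus, had a median of 0.01, with 0.09 (SE 0.12) for Ipo5, -0.01 (SE 0.11) for Kpnb1 and -0.07 (SE 0.12) for Ipo9.

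Partners of the 7 proteins gave mostly small positive values. Of 26 measured genes in 3 lists, 19 were positive and 7 negative, with a median log2 fold change of 0.06. Over all genes tested, 51.0% had negative values. edgeR, DESeq2 and limma-voom called 0 of them, against 0.0213%, 0.256% and 0.0284% of all genes. By edgeR 1 (H2az1) had an unadjusted p under the threshold, against 4.97% of all genes. The groups did not overlap for 15.4%, against 10.5% of all genes tested. All 4 were higher in Jag1 libraries (H2az2, H3f3a, Ppp2ca and Ppp2cb), where 5.3% of all genes were higher without overlap. Nothing is read from so few. Histone variant genes had 8 positive values of 10 (median 0.15). H3f3a, an H3.3 gene, had 248, 234 and 269 CPM in Control 1 to 3 and 344, 279 and 271 CPM in Jag1 1 to 3 (log2 fold change 0.25, SE 0.13), H3f3b had 0.20 (SE 0.12) and H2az1 0.29 (SE 0.13).

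The PP2A genes, whose product Set inhibits, had 5 positive values of 7 (median 0.10). The catalytic subunit gene Ppp2ca had 160, 161 and 164 CPM in Control 1 to 3 and 176, 177 and 168 CPM in Jag1 1 to 3, and Ppp2cb had 45.3 ± 3.40 and 53.2 ± 4.03 CPM (SD, n = 3 each). The log2 fold change was 0.14 (SE 0.10) for the scaffold gene Ppp2r1a and -0.01 (SE 0.11) for the regulatory gene Ppp2r5c. Of 9 measured nucleolar partners of Npm1, 6 were positive and 3 negative (median 0.02). Ncl, or nucleolin, had 282 ± 34.2 and 266 ± 24.95 CPM, the methyltransferase gene Fbl had a value of 0.22 (SE 0.13), Dkc1 had -0.13 (SE 0.13) and the rDNA factor gene Ubtf had 0.001 (SE 0.12), all with overlapping groups.

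**Figure D5:**
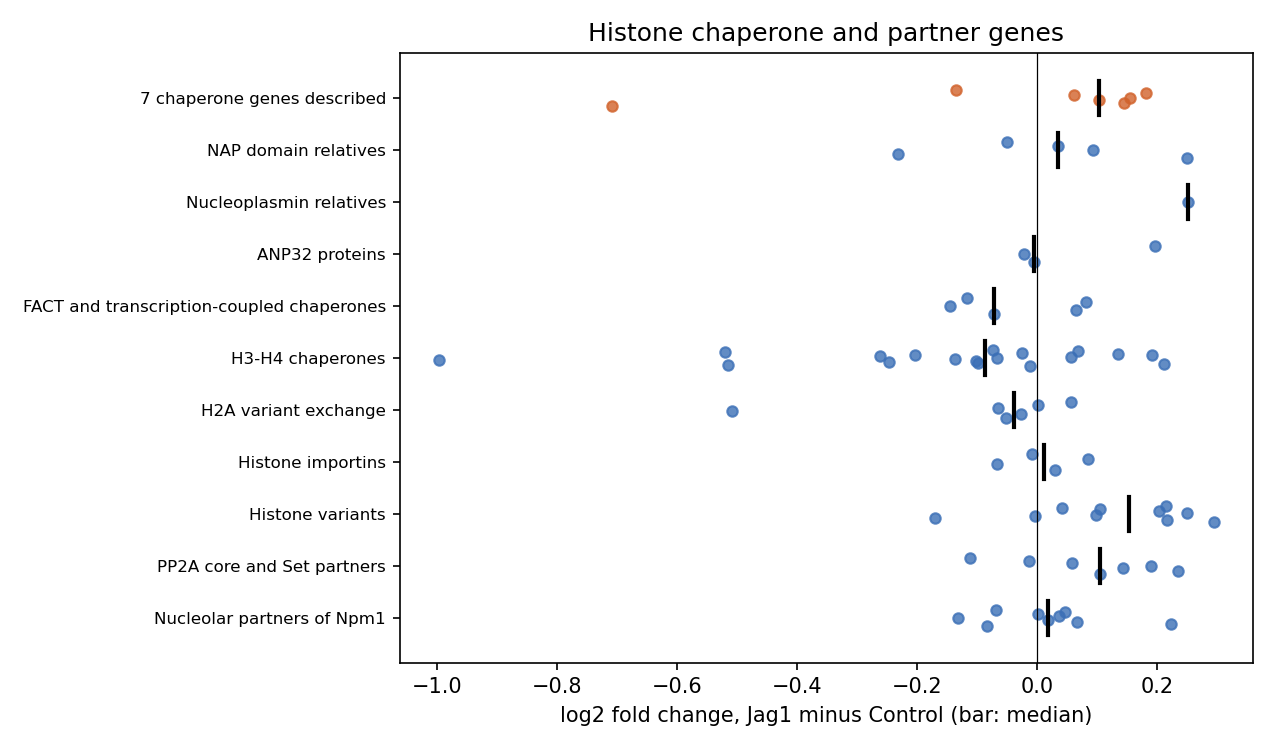
Log2 fold change, Jag1 minus Control, of each measured gene (point) in the chaperone and partner lists, with the list median as a bar and the 7 described genes in orange. The list medians lie between -0.09 and 0.15, except for nucleoplasmin relatives, where the 1 measured gene, Npm3, lies at 0.25. Nap1l1, at -0.71, was chosen by its low value, so its place beside the lists is a description.

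The genes nearest to each chaperone in pattern were found by the root mean square difference of centred log2 CPM over the 6 libraries, among 14072 genes. Since the pattern of Nap1l1 includes the difference that chose it, this is a description. Nearest to Nap1l1 were Cdc25b, a phosphatase of the cell division cycle, with a difference of 0.091, Slc9b2, an ion exchanger gene, with 0.101, and the olfactory receptor gene Olfr472 with 0.102, where the median gene had 0.428. Cdc25b had 6.59, 5.28 and 5.24 CPM in Control 1 to 3 and 2.82, 4.41 and 3.37 CPM in Jag1 1 to 3. Seen from Nap1l1, Npm1 ranked 1758 among the 14072 genes and the other 5 chaperones between 7567 and 10771.

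Among Nap1l2 to Nap1l5 and Set the ranks ran from 185, for Nap1l4 seen from Nap1l5 (difference 0.079), to 5625, for Nap1l2 seen from Set. Low ranks were spread over these genes. Seen from Nap1l4, Set ranked 311 and Nap1l5 372, and seen from Nap1l3, Set ranked 363. Seen from Nap1l2, Nap1l5 ranked 385 and Nap1l3 397. Seen from Set, Nap1l4 ranked 378 and Nap1l3 496, although Nap1l5 ranked 1745. Nap1l2 ranked 2418 to 5625 seen from the other 4. The nearest genes were Kbtbd3, Bcap29 and Ccn3 for Nap1l2, Gprasp2, Mrps23 and Rfxap for Nap1l3, and Osbp, Psmg2 and Atl2 for Nap1l4. They were 1700066M21Rik, Psma1 and Tspan2 for Nap1l5, Uba2, Vdac3 and Sdhb for Set, and Ift140, Tshz2 and Ranbp1 for Npm1. The nearest of all was 1700066M21Rik to Nap1l5, with a difference of 0.011, at 8.81 ± 1.07 CPM in Control against 9.23 ± 1.16 CPM in Jag1 libraries. The 6 points of each pattern share library, depth and the acinar content given above.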

How the data were processed

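RNA was sequenced from islets of 3 Control and 3 Jag1 mouse libraries with a stranded mRNA kit, per the labels' protocols. The authors deposited estimated counts per gene symbol as whole numbers, without normalization. Tools named in the submitters' processing notes are bcl2fastq, kallisto and limma, with no versions, on GRCm38 (mm10); the annotation and the summing of transcripts to genes are not given in the sources. Splitting of reads between near-identical transcripts by an estimate can move counts between a gene and its copies. The authors also deposited a limma comparison with log2 fold changes and mean log2 expression, p-values, and 2 statistics taken as score values, per the file headers.

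A row with no gene name took 0.00896% to 0.0155% of counts and was left out. Estimated counts were fitted with edgeR 4.0.16 in R 4.3.3 (filterByExpr with a minimum count of 10, TMM, robust quasi-likelihood test, all 6 libraries, no covariate), with Benjamini-Hochberg adjustment over 14073 genes and a threshold of 0.05. The steps were tested on simulated data. There edgeR recovered 28%, 64% and 98% of genes raised 1.5-fold, 2-fold and 4-fold, and 100% of genes lowered to 0.25-fold. An uncalled gene can therefore still differ by 1.5-fold or 2-fold. Means are given with the SD and log2 fold changes with the standard error (SE). Copies were searched with BLAST 2.17.0 at 85% identity over 100 bp, in the same sense of the transcripts only. Alternatives were other scalings, DESeq2 1.42.0, limma-voom from limma 3.58.1, other filters, a replicate block, the non-robust fit, acinar markers as covariate or left out, added copies, other lengths and libraries left out.

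The genes and lists were chosen with earlier results of these data known. Named are the 7 chaperone genes, overlapping genes, copies with counts (up to 3 a gene), the 3 genes nearest in pattern to each, and in each chaperone and partner list the 2 genes highest in log2 CPM and the 2 with the smallest p. Names of other genes with groups that did not overlap, of cell cycle genes called by DESeq2, and Npm2 were chosen after their values were seen. Figures were drawn with matplotlib 3.10.9.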

Additional observations from a re-analysis of the deposited data

How the results depend on the processing

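No alternative reversed a called value, since no value of the 7 genes or the lists was called by edgeR. The number of genes called by edgeR, 3 in the comparison as reported, was 11 with library size alone, 9 with no filter on low counts and 7 without Control 1 and Jag1 3 together, DESeq2 called 36, and leaving out 1 library gave 2 to 6. Among all these fits only DESeq2 called any of the 7 chaperone genes, Nap1l1. Leave-one-out ranges of the log2 fold change were -0.81 to -0.59 for Nap1l1, -0.08 to 0.30 for Nap1l2, -0.04 to 0.13 for Nap1l5, 0.14 to 0.22 for Set and -0.23 to -0.03 for Npm1, so the sign of Nap1l2 and Nap1l5 depended on the library left out. With copies added Set had 0.098. List medians ranged over single libraries left out from -0.018 to 0.026 for relatives of the Nap1 fold, from -0.096 to 0.027 for FACT and transcription-coupled chaperones and from -0.118 to 0.130 for nucleolar partners, and the medians of ANP32 proteins (-0.09 to 0.06) and importins (-0.07 to 0.07) also took both signs. By merged exon length and by longest coding transcript, levels in CPM per kb were 34.0 and 43.1 for Nap1l1, 20.7 and 28.0 for Nap1l4, 19.6 and 19.6 for Nap1l5, 27.4 and 39.4 for Set, and 71.1 and 116 for Npm1, because those lengths are longer. Same-numbered libraries did not deviate together (correlations -0.19, 0.11 and -0.29 for numbers 1, 2 and 3). The highest correlation, 0.29, was of Control 1 with Jag1 3, the libraries with the most acinar RNA in their groups. Since the labels do not say what the numbers mean, these values cannot settle whether libraries were paired. With the replicate block 3 genes were called, Nap1l1 had -0.71 and Set 0.18. Each chaperone gene had 185 or more counts in every library.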
